A study of Mus musculus with 5 samples.

Results

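Class 3 semaphorins are the secreted semaphorins of vertebrates, and 6 of their genes, Sema3a, Sema3c, Sema3d, Sema3e, Sema3f and Sema3g, were followed here together with their receptor genes Nrp1, Nrp2, Plxna1 and Plxnd1. The members were every probe set whose platform annotation gave 1 of these 10 gene symbols, which made 10 of the 18193 genes named on the array and 26 of the 45037 probe sets tested. A probe set is a group of short probes on the array that together read 1 stretch of a transcript. The tissue was the dLGN (dorsal lateral geniculate nucleus), a part of the thalamus that relays retinal signals to visual cortex, microdissected at P0, the day of birth, from mice on a C57BL/6 background. The 2 knockout arrays came from Sema6A-/- pups and the 3 control arrays from heterozygous pups of the same age with 1 working copy of Sema6A, so no array stands for mice with both copies. Each array held RNA of 1 pool of nuclei from pups of the same genotype and different litters. The p-values therefore measure the spread between pools, and permuting the labels of 2 and 3 pools exactly could give no p under 0.1.

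A secreted class 3 semaphorin steers growing axons and migrating cells by binding a neuropilin, which holds the ligand, while a plexin beside it carries the signal into the cell. Sema3a acts mainly through Nrp1 and Sema3f through Nrp2, Sema3c can use both, and Sema3e binds Plxnd1 without needing a neuropilin. Sema6A, the protein missing in the knockout, is a transmembrane semaphorin of another class that binds A-type plexins directly. In bulk tissue, fewer cells of a type and less RNA per cell cannot be told apart.

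The 250 bases before the annotated start of transcription are shown for the 5 semaphorin genes that had a probe set with an unadjusted p under 0.05 and an entry in the RefSeq promoter table, because the comparison of the genotypes turns on them. In build GRCm38.p6, all on the + strand, they lie at chr5:13396534-13396783 for Sema3a, chr5:17574566-17574815 for Sema3c, chr5:12382916-12383165 for Sema3d, chr5:14025026-14025275 for Sema3e and chr14:31217623-31217872 for Sema3g. Capitals mark the GC box, GGGCGG, and the E-box, CANNTG, each searched on both strands.
Sema3a: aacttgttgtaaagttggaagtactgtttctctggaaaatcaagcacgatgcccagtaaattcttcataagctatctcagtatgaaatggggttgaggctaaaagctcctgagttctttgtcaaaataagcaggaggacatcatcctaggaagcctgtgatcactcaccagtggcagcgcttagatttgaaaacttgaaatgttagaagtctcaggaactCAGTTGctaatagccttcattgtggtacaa
Sema3c: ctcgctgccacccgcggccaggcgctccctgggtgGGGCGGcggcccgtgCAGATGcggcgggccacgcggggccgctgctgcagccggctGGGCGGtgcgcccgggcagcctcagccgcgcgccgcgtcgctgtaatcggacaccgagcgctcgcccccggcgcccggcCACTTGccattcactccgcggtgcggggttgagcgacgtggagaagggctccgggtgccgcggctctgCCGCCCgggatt
Sema3d: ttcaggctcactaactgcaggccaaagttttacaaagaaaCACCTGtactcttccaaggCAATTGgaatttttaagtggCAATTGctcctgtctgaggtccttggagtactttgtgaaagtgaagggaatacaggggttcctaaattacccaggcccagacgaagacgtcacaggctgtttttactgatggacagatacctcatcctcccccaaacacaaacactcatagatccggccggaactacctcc
Sema3e: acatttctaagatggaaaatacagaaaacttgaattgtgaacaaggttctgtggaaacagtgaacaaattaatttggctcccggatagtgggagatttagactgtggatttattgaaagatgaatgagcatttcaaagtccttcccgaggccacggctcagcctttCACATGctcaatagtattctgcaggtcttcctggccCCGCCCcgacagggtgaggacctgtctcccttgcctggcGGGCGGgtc
Sema3g: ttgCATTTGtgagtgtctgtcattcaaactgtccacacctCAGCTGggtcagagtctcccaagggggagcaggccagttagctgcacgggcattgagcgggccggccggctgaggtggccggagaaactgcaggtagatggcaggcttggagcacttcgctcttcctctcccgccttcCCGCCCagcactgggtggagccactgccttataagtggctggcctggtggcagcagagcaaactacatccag
The windows had little in common in base composition. G and C made up 78.4% of the bases at Sema3c, 60.4% at Sema3g, 48.0% at Sema3e, 46.8% at Sema3d and 40.8% at Sema3a, against a median of 52.4% over 32851 promoter windows of the same length. All 5 windows held at least 1 E-box, as did 66.2% of all windows. The windows of Nrp1, Nrp2 and Plxnd1, the other members found in the table, held 0 E-boxes and had 64.4%, 72.4% and 64.8% G and C. A GC box lay in the windows of Sema3c, Sema3e, Sema3g, Nrp1, Nrp2 and Plxnd1, and in 32.7% of all windows. These matches describe letters and are not evidence of binding.

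Values are log2 expression, so a difference of 1 is a doubling. The deposited medians of the arrays lay between 6.39 and 6.42, and the median of all values, 6.41, is used below as a mark for dim probe sets, since RMA compresses differences near the background. Sema6a itself read 7.81 and 7.85 in the knockout arrays and 10.47, 10.65 and 10.39 in the control arrays at its brightest probe set (limma adjusted p = 0.0236), a call lost with the replicate number as a block (0.298) or any array left out (0.0654 to 0.234). All 10 markers of thalamic relay neurons lay above the median of all values. Of these, 5 lay above every control in both knockout arrays and 2 below, against 15.8% and 13.9% of all genes. Their summed log2 level was 15.34 in knockout replicate 1, 15.63 in replicate 2 and 15.36 to 15.38 in the controls. Knockout replicate 1 stood apart: for Gapdh, the array's control probes at the 3′ end read 2.34 above those at the 5′ end there, against 0.96 in knockout replicate 2 and 0.77 to 1.33 in the controls. Markers of GABAergic and prethalamic cells had a summed log2 level of 13.08 in that array, 10.42 in knockout replicate 2 and 9.75 to 10.80 in the controls. Results are therefore given for each knockout array.

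None of the 26 probe sets passed the adjusted threshold. The groups did not overlap at 9 of 15 ligand probe sets and at 1 of 11 receptor probe sets, 1426528_at of Nrp2. Where each gene is represented by its brightest probe set, Sema3a, Sema3c, Sema3d, Sema3e and Sema3f read higher in both knockout arrays than in every control array, and Sema3g read lower in both. On the same basis the groups overlapped for Nrp1, Plxna1 and Plxnd1 and met at a shared value for Nrp2. Groups that do not overlap were thus found for 6 of 10 members, against 29.7% of all genes (15.8% higher and 13.9% lower in the knockout), and for 10 of 26 member probe sets, against 27.3% of all probe sets. In limma, 0 of 26 member probe sets had an adjusted p under 0.05, where 0.0733% of all probe sets did. An unadjusted p under 0.05 was reached by 7 of 26, 6 higher and 1 lower in the knockout, against 11.1% of all probe sets, of which 5.16% were higher and 5.99% lower. Counted by gene at the brightest probe set these were 5 of 10, against 11.8% of genes. The gene count was 3 without control replicate 2 (8.65% of all genes there) and 2 without control replicate 3 (8.62%), and the probe set count was 3 without control replicate 3 (8.23% of all probe sets). The median difference over the 6 semaphorin genes was 0.98 and over the 4 receptor genes -0.0008, beside 0.0085 over all genes. The receptor genes ranged from -0.098 to 0.89, the latter for Nrp2. Counted by probe set, the median was 0.52 over the 15 ligand and 0.055 over the 11 receptor probe sets, beside -0.0071 over all.

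**Figure D1:**
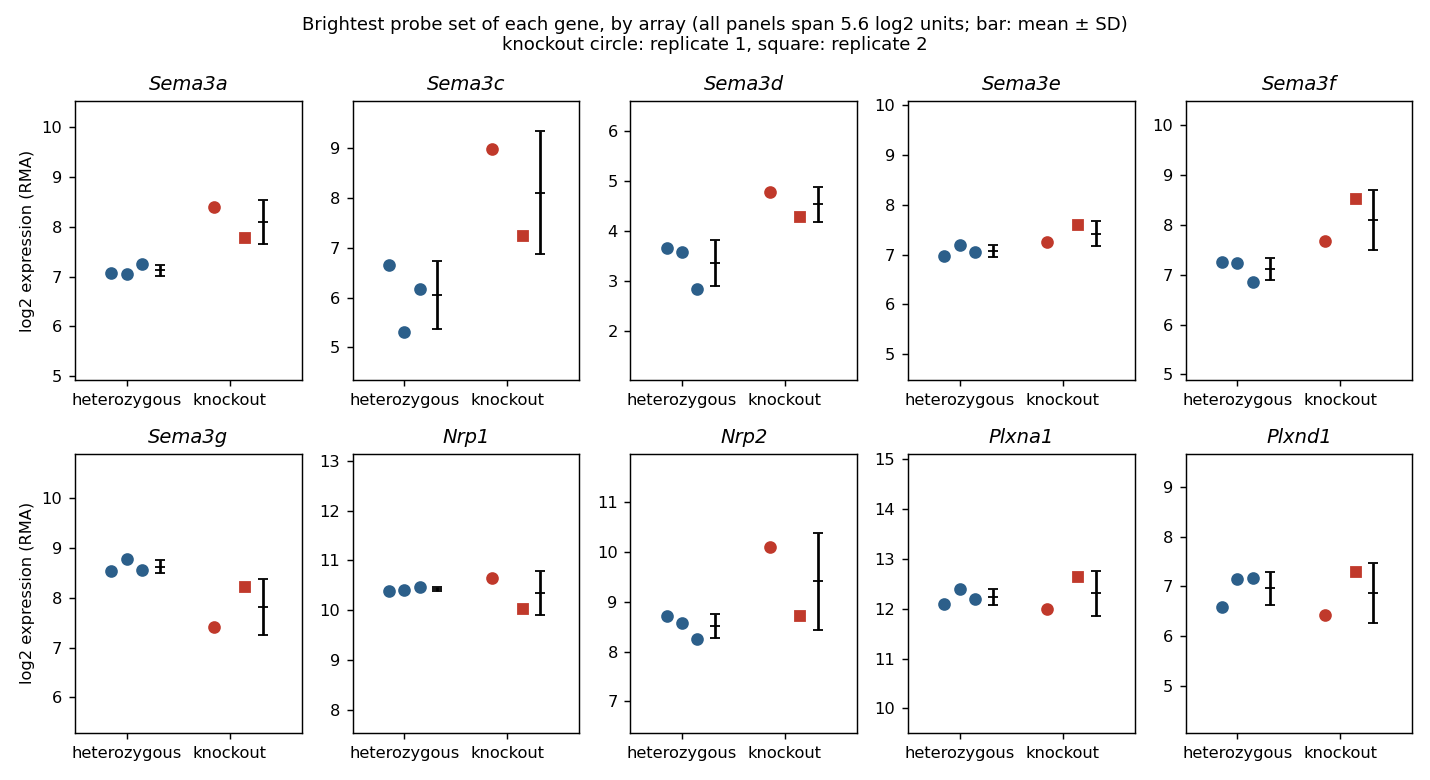
Each panel plots log2 expression of 1 gene at its brightest probe set, with a point per array for 3 heterozygous (blue) and 2 knockout (red) pools and the mean ± SD as a black bar. All 6 semaphorin panels show knockout points that lie wholly above or, for Sema3g, wholly below the control points, and the 4 receptor panels show overlap or a shared value.

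Among the ligands, Sema3a, a repellent for many axons, had the smallest p of the members. Its brightest probe set read 8.40 in knockout replicate 1 and 7.78 in replicate 2, and 7.07, 7.04 and 7.25 in the controls. The control values lay within 0.21 of each other and both knockout values lay above them, with replicate 1 the higher. The difference was 0.97 with a standard error of 0.21, on a scale where knockout and control averaged 8.09 ± 0.44 (SD, n = 2) and 7.12 ± 0.11 (SD, n = 3), and the limma adjusted p was 0.225. Without knockout replicate 1 it was 0.66. A second probe set of Sema3a, 1420417_at, read 4.78 and 4.23 in the knockout against 3.85, 3.77 and 3.93 in the controls. It also had both knockout arrays above the controls, with a difference of 0.66 (limma adjusted p = 0.316), or 0.38 without knockout replicate 1, although its level lay well under the median of all values. The dimmest probe set of the gene differed by 0.25 and its groups overlapped.

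The widest difference among the members was that of Sema3c, a ligand of both neuropilins, at the probe set 1429348_at. It read 8.97 in knockout replicate 1 and 7.23 in replicate 2, and 6.66, 5.32 and 6.18 in the controls. Both knockout arrays lay above the controls, but the gap of 1.74 between them was wider than the whole range of the controls, 1.34. The difference was 2.05 with a standard error of 0.62 and a 95% interval from 0.51 to 3.59 (limma adjusted p = 0.339). It was 1.18 without knockout replicate 1. The other probe set of Sema3c, 1420696_at, read 4.25 and 4.68 in the knockout and 4.39 to 4.59 in the controls, a difference of -0.025. So the probe sets of this gene disagreed, the brighter one carrying the whole difference and the other lying far below the median of all values.

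Sema3d, a semaphorin of developing vessels and neurons, was dim throughout. Its brighter probe set read 4.78 and 4.29 in the knockout and 3.67, 3.57 and 2.84 in the controls, with the knockout arrays above all 3. The difference was 1.18 with a standard error of 0.30 (limma adjusted p = 0.279). Both probe sets of Sema3d lay below the median of all values, and the dimmer one, at a mean of 2.10, differed by 0.15.

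Sema3e, the ligand of Plxnd1, had 4 probe sets, and the mean was higher in the knockout at each, by 0.12 to 0.58. The brightest read 7.24 and 7.60 in the knockout and 6.97, 7.20 and 7.05 in the controls, which leaves a gap of only 0.04 between the nearest arrays of the groups. Its difference was 0.35 with a standard error of 0.15 (limma adjusted p = 0.489), and 0.17 without knockout replicate 2. The probe set 1419717_at read 6.63 and 6.09 in the knockout and 5.85, 5.83 and 5.66 in the controls, a difference of 0.58 (limma adjusted p = 0.369), and of 0.31 without knockout replicate 1. The array that was higher within the knockout pair was replicate 2 at the first of these probe sets and replicate 1 at the second.

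Sema3f is a ligand of Nrp2. The probe set 1438947_x_at, whose suffix marks probes that can also match other transcripts, read 7.67 in replicate 1 and 8.52 in replicate 2, and 7.25, 7.23 and 6.85 in the controls. Its difference was 0.98 with a standard error of 0.28 (limma adjusted p = 0.325), and 0.55 without knockout replicate 2. At 1420508_at the values were 6.58 and 7.72 against 6.61, 6.76 and 6.52, so replicate 1 lay among the controls and replicate 2 above them. At 1425840_a_at they were 5.84 and 7.14 against 6.11, 6.74 and 6.66, with the knockout arrays on opposite sides of the controls and a difference of -0.012. The size of the Sema3f difference thus varied with the probe set, while replicate 2 was the highest of the 5 arrays at all 3.

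Sema3g, which is known from the endothelium of blood vessels, was the member that read lower. Its probe set, the only one of the gene, read 7.41 and 8.21 in the knockout and 8.54, 8.77 and 8.55 in the controls. Both knockout arrays lay below the controls, replicate 1 further than replicate 2. The means were 7.81 ± 0.57 (SD, n = 2) and 8.62 ± 0.13 (SD, n = 3), a difference of -0.81 with a standard error of 0.25 (limma adjusted p = 0.352). Without knockout replicate 1 it was -0.41. Of the endothelial and pericyte markers, 7 of 12 had a higher and 5 a lower mean in the knockout, with a median difference of 0.14. In both knockout arrays, 4 of the 12 lay above every control and 0 below, against 15.8% and 13.9% of all genes. Their summed log2 level was 13.33 to 13.46 in the knockout and 13.13 to 13.37 in the controls. Of these markers, the defining genes Pecam1 and Cdh5 lay below the median of all values in mean level, and the part of these cells in the Sema3g values was not tested.

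**Figure D2:**
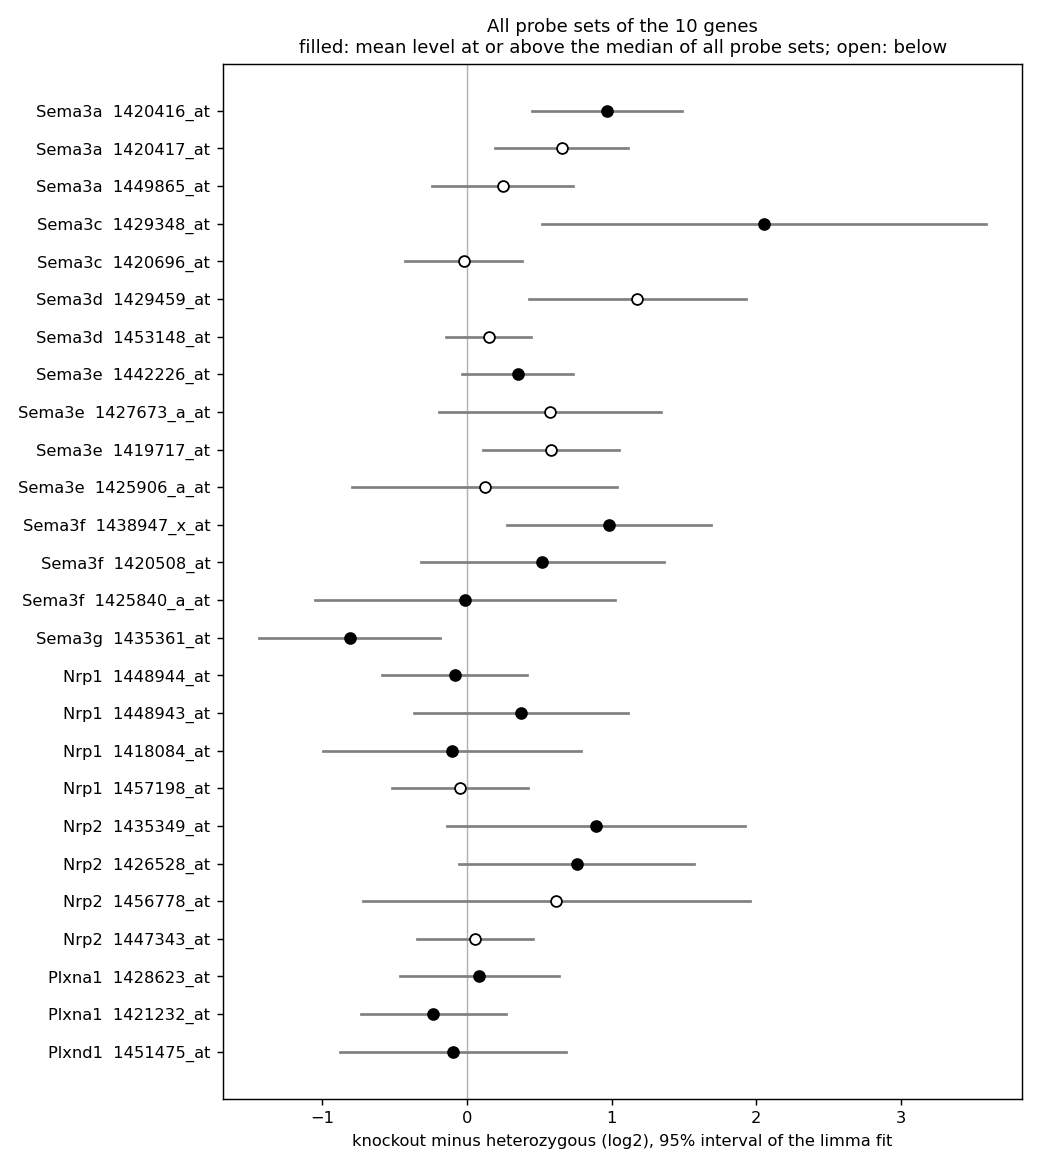
Points show the knockout minus heterozygous difference in log2 expression of each of the 26 probe sets and lines its 95% interval, with open points for probe sets whose mean level is below the median of all values. The intervals of 6 semaphorin probe sets lie above 0 and that of Sema3g below it, whereas all 11 receptor intervals cross 0.

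Of the receptors, Nrp1, the ligand-binding neuropilin of Sema3a and a co-receptor for VEGF in vessels, was bright at 3 of its 4 probe sets. The brightest read 10.66 in knockout replicate 1 and 10.03 in replicate 2, and 10.39, 10.42 and 10.47 in the controls. The knockout arrays lay on opposite sides of controls that agreed within 0.08. The difference was -0.084 with a 95% interval from -0.59 to 0.42 (limma adjusted p = 0.904). Replicate 1 was the higher knockout array at all 4 probe sets of Nrp1, whose differences ran from -0.11 to 0.37.

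Nrp2 is the neuropilin of Sema3f. Except at its dimmest probe set, it read well above the controls in knockout replicate 1 and close to them in replicate 2. At its brightest probe set it read 10.09 in replicate 1 and 8.72 in replicate 2, against 8.72, 8.57 and 8.25 in the controls. The value of replicate 2 equalled that of control replicate 1. At 1426528_at it read 7.68 and 6.58 against 6.25 to 6.50, so both knockout arrays lay above the controls, replicate 2 by 0.08, with a difference of 0.76 (limma adjusted p = 0.479) and of 0.21 without knockout replicate 1. At 1456778_at it read 7.18 and 5.58 against 5.17 to 6.17, with replicate 2 inside the range of the controls. At the dimmest, 1447343_at, it read 4.23 and 3.79 against 3.89 to 3.99, with replicate 2 below the controls and a difference of 0.055. The difference at the brightest probe set was 0.89 with a standard error of 0.41 (limma adjusted p = 0.505), and 0.21 without knockout replicate 1. The GABAergic and prethalamic markers were high in the same array: 12 of 13 exceeded every control in replicate 1, as did 35.4% of all genes, and 5 of 13 in replicate 2, against 26.7%, with median differences of 2.65 and 0.09 from the control mean. Of these markers Isl1, Dlx1, Dlx2, Dlx5, Lhx1 and Six3 lay below the median of all values in mean level. Sema3a, Sema3c, Sema3d and Nrp1 also read highest in knockout replicate 1 at their brightest probe sets. The part of GABAergic and prethalamic cells in the values of these genes and of Nrp2 was not tested.

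Plxna1 is a plexin that signals for semaphorins bound to Nrp1. It read 11.99 and 12.63 in the knockout and 12.09, 12.40 and 12.19 in the controls, so replicate 1 was the lowest and replicate 2 the highest of the 5 arrays. Its difference was 0.083 with a 95% interval from -0.47 to 0.63 (limma adjusted p = 0.917). The dimmer probe set read 6.23 in knockout replicate 1, below all others, and 6.83 in replicate 2, for a difference of -0.23. Plxnd1, the receptor of Sema3e, read 6.44 and 7.29 in the knockout and 6.58, 7.14 and 7.16 in the controls, again with the knockout arrays at the ends of the range. The difference of Plxnd1 was -0.098 with a 95% interval from -0.88 to 0.68 (limma adjusted p = 0.930). A p above the threshold does not show that these receptor levels were equal.

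The knockout arrays differed from each other more than the controls did for most members. The gap between them exceeded the full range of the 3 controls at 9 of 10 members, against 41.3% of all genes, and Sema3d was the exception. Among these 9, replicate 1 was the higher array for Sema3a, Sema3c, Nrp1 and Nrp2 and the lower for Sema3e, Sema3f, Sema3g, Plxna1 and Plxnd1. All 12 markers of microglia and macrophages lay above every control in both knockout arrays, against 15.8% of all genes, with median differences of 1.98 in replicate 1 and 1.72 in replicate 2. Their summed log2 level was 13.43 to 13.94 in the knockout and 11.34 to 11.86 in the controls, P2ry12 and Tmem119 lay below the median of all values, and the part of these cells in the semaphorin values was not tested. Of the oligodendrocyte lineage, 5 of 7 markers lay above every control in both knockout arrays and 1 below, against 15.8% and 13.9% of all genes. Their summed log2 level was 12.96 to 13.22 against 12.54 to 12.68. Radial glia and astrocyte markers, with 1 of 8 above every control in both (15.8% of all genes), summed to 14.39 to 14.43 against 14.18 to 14.36. The part of these cells was not tested either.

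**Figure D3:**
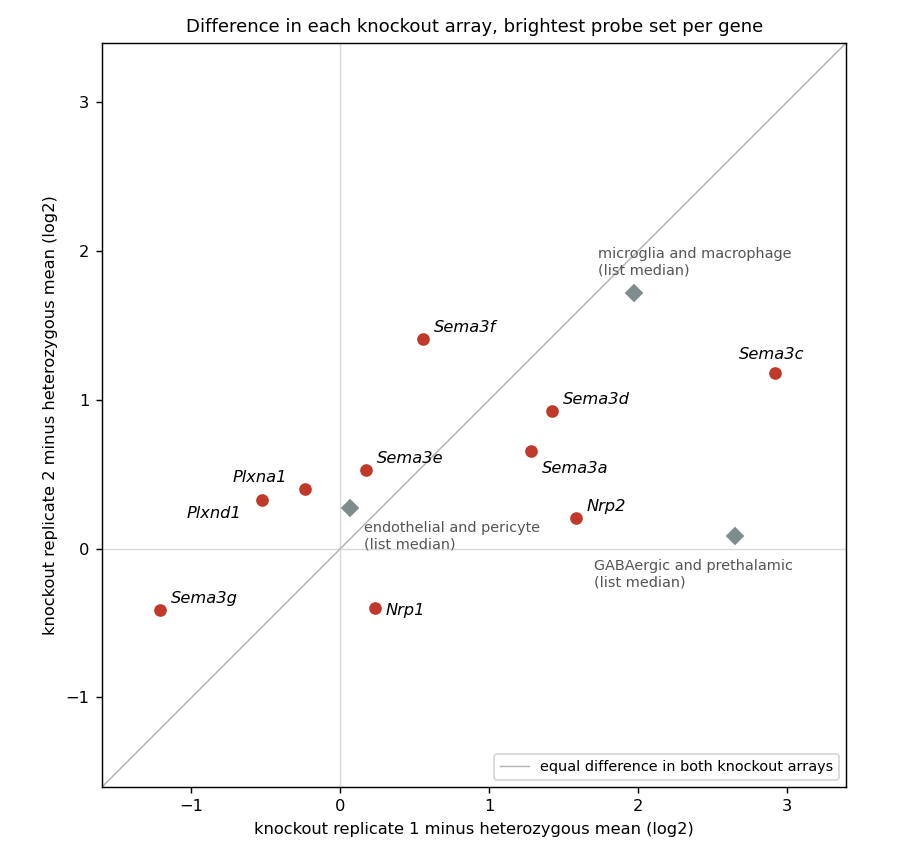
Each red point gives the log2 difference of a gene from the heterozygous mean in knockout replicate 1 (x axis) and replicate 2 (y axis), and grey diamonds give the median of 3 marker lists. Sema3c, Sema3a, Sema3d and Nrp2 lie below the line of equal difference on the right, and Sema3f lies above the line.

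Sema3d, Sema3a, Sema3e and Sema3c lie in this order on chromosome 5. At their brightest probe sets all 4 read higher in both knockout arrays, as did 15.8% of all genes. Over all their probe sets this held at 2 of 2 for Sema3d, 2 of 3 for Sema3a, 2 of 4 for Sema3e and 1 of 2 for Sema3c. Of all probe sets on the array, 12.9% were higher in this way. Sema3f is on chromosome 9 and Sema3g on chromosome 14, and the receptor genes are on chromosomes 1, 6 and 8. Between Sema3d and Sema3c the RefSeq annotation places 18 other protein-coding genes, of which 5 were measured, and their values were looked up after those of the semaphorins were known. Pclo, a scaffold protein of presynaptic active zones, differed by -0.0091 (95% interval -0.39 to 0.37) and Cacna2d1, a calcium channel subunit, by -0.031 (95% interval -0.34 to 0.28). The other 3, Speer3, Hgf and Speer4f1, were dim and differed by 0.04 to 0.14. For 0 of these 5 neighbours did the groups separate, against 29.7% of all genes, and 0 had an unadjusted limma p under 0.05, against 11.8%.

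**Figure D4:**
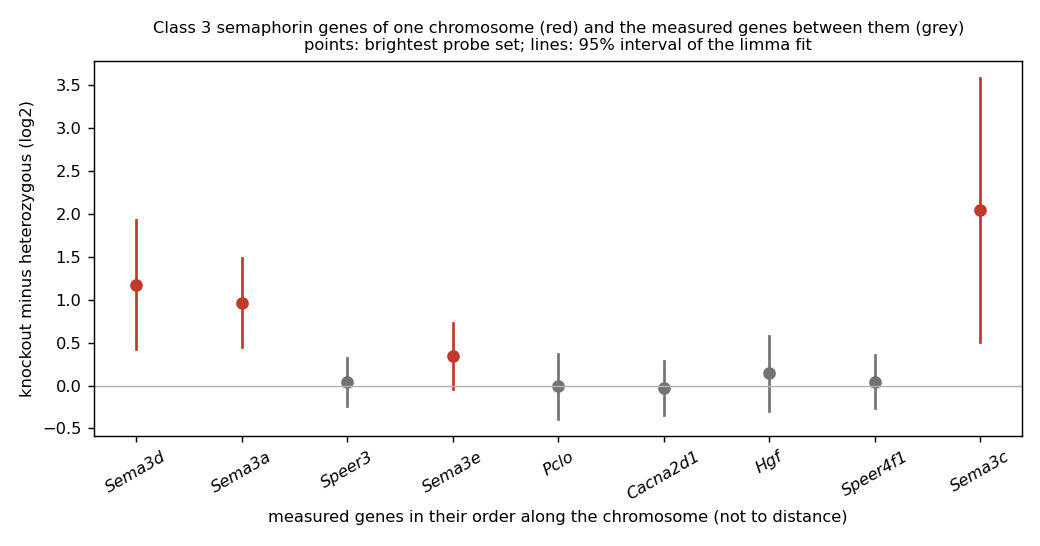
The measured genes from Sema3d to Sema3c are placed in chromosome order, each at its brightest probe set. Points give the knockout minus heterozygous log2 difference and lines its 95% interval, with semaphorins in red and other genes in grey. The 4 red points lie between 0.35 and 2.05 and the 5 grey points between -0.031 and 0.14.

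The genes whose profile over the 5 arrays came closest to that of Sema3a, by Euclidean distance after the control mean of each gene was subtracted, were Megf6, Rab27b and Nod1 among 11724 other genes at or above the median of all values. Their distances were 0.17, 0.17 and 0.18 in log2 units. Megf6 differed by 0.88, Rab27b, a GTPase of vesicle secretion, by 0.94 and Nod1, a sensor of bacterial peptides, by 0.86. In each of them, as in Sema3a, knockout replicate 1 was the highest array and replicate 2 the next. The genes were picked for closeness to the Sema3a profile, so this order and the size of their differences follow from the choice.

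Of 50 other genes of the pathway, 49 were measured, and 0 passed the adjusted threshold in limma (0.104% of all genes did). In the knockout, 7 read higher and 4 lower with an unadjusted p under 0.05, against 6.90% and 4.90% of all genes. The median difference over the list was 0.013. Plxnc1, the receptor of Sema7A, read 10.62 and 10.65 in the knockout and 9.08, 9.42 and 9.35 in the controls, a difference of 1.35 (limma adjusted p = 0.0739). Plxna2, which binds Sema6A, read 8.89 and 9.24 against 7.35, 7.78 and 7.70, a difference of 1.45 (limma adjusted p = 0.0981). In both plexin genes the knockout arrays lay above all controls, and they lay closer together in Plxnc1 than in Plxna2. Other plexins on which class 3 signalling can rest differed little, Plxna3 by -0.085 and Plxna4 by -0.24. The cell adhesion gene Cntn2 read 0.51 higher (limma adjusted p = 0.367).

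Among 22 genes that act inside the cell, 1 was higher and 3 were lower with an unadjusted limma p under 0.05. Of all genes, 6.90% were higher and 4.90% lower by that measure. Mical2, which encodes an oxidoreductase that takes actin filaments apart, read 7.48 and 7.24 in the knockout and 8.60, 8.15 and 8.10 in the controls. Its difference was -0.93 (limma adjusted p = 0.213). The tyrosine kinase gene Fes differed by -0.63 (limma adjusted p = 0.432). The collapsin response mediator genes, which relay Sema3a signals to microtubules, lay near 0, with Dpysl2 at 0.0048 and Crmp1 at -0.012. Of the proteases, Adam17, which cuts neuropilins among other membrane proteins, read 0.34 higher (limma adjusted p = 0.389), and Furin, which cleaves class 3 semaphorins, differed by -0.12. Vegfc, a growth factor that binds Nrp2, had a difference of -0.58 (limma adjusted p = 0.358). Sema3b, the remaining class 3 semaphorin, differed by 0.011 at its brightest probe set (95% interval -0.32 to 0.34). Met, the receptor for hepatocyte growth factor, was named after its values were seen because its level lay below the median of all values, and it differed by 1.75 (limma adjusted p = 0.0831).

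**Figure D5:**
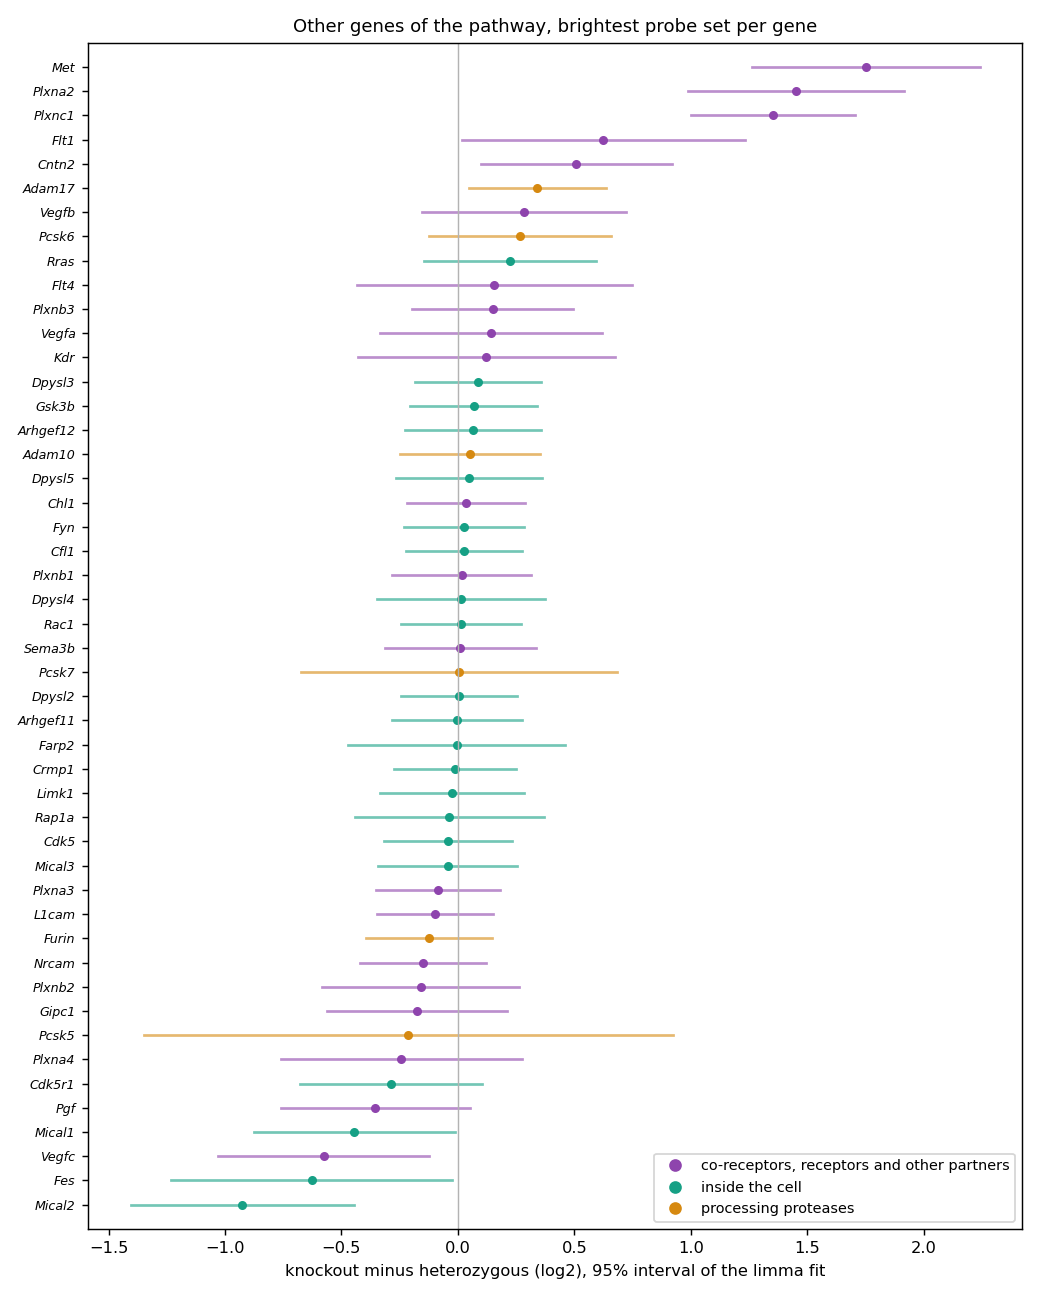
The knockout minus heterozygous log2 difference is shown as a point with its 95% interval as a line for genes that act with class 3 semaphorins, coloured by role, with 1 of the 49 measured genes left out. Met, Plxna2 and Plxnc1 form the upper end at 1.75, 1.45 and 1.35 and Mical2 the lower end at -0.93, with most genes near 0.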

How the data were processed

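Per the labels' protocols, dLGN tissue came from vibratome sections of 200 µm, and 20 ng of total RNA per pool was amplified, labelled with biotin and put on Affymetrix arrays. The authors deposited log2 expression per probe set. The submitters' processing notes name RMA as the tool, with the version not given in the sources used here. RMA equalises the distributions of the arrays, so a shift shared by most genes would be hidden. Of 45101 probe sets, 64 array controls were left out. The platform annotation names 1 gene for 34945 probe sets, and where along a transcript a probe set reads is not given in the sources used here.

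Knockout and heterozygous arrays were compared in R 4.3.3 with a two-sided limma 3.58.1 fit (lmFit, eBayes) of genotype alone, and p-values were adjusted by Benjamini-Hochberg over 45037 probe sets. The number of arrays limits the precision. A gene is represented by its brightest probe set, that of the highest mean over all arrays. The members and lists were chosen with earlier results of these data known. Of the other pathway genes, up to 8 with the smallest unadjusted p under 0.05 and a level at or above the median of all values were to be named, of which 1 is not reported here. Further genes were named for their role. Summed marker levels are the log2 of the summed unlogged values. Promoter sequences are from RefSeq, GRCm38.p6, where 8 of 10 members matched. The alternatives were a replicate block, a second quantile normalisation, median centring, a filter on dim probe sets, an intensity trend, a robust prior, array weights, each array left out, the mean of a gene's probe sets and a threshold of 0.1.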

Additional observations from a re-analysis of the deposited data

Results flagged for a closer look

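Knockout replicate 1 was set apart by probes for Gapdh and Actb that serve as array controls and entered no comparison. In that array the 3′ end read above the 5′ end by 2.34 for Gapdh and by 1.91 for Actb, where the controls reached at most 1.33 and 1.45. Knockout replicate 2 gave 0.96 and 0.97.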

How the results depend on the processing

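No alternative called a member probe set, and the lowest adjusted p of a member over all of them was 0.0938, for Sema3a without knockout replicate 2. The count over all probe sets went from 33 to 158 at a threshold of 0.1, 97 without dim probe sets, 100 with an intensity trend, 19 with array weights and 0 with the replicate block, and was 0 with any array left out. Member probe sets with an unadjusted p under 0.05 numbered 4 of 15 without dim probe sets (14.5% of all) and 3 to 10 with an array left out (8.20% to 18.6% of all, the 10 beside 18.6%), and member genes 2 to 5 (8.62% to 18.4%). Sema6a gave -2.73 with the replicate block (adjusted p = 0.298) and -2.73 to -2.60 with an array left out, where it missed the threshold each time. Deviations of arrays with the same replicate number correlated at 0.15 and 0.21, but 2 pairs do not show that the numbers pair the pools. Only the controls have a replicate 3, so the block takes that array out of the difference. The block and leaving out control replicate 3 therefore gave the same differences and are not separate checks of them. With the block, and without that control, the sign turned for Sema3c 1420696_at (0.024), Sema3f 1425840_a_at (0.068), Nrp1 1418084_at (0.0093) and Plxnd1 (0.0018). Sema3f 1425840_a_at also turned with quantile normalisation (0.016) and array weights (0.013), and the mean over probe sets turned Nrp1 (0.033) and Plxna1 (-0.075). With an array left out, the values that changed sign ranged from -0.24 to 0.19 for Sema3c 1420696_at, -0.17 to 0.46 for Sema3e 1425906_a_at, -0.053 to 1.09 for Sema3f 1420508_at and -0.66 to 0.64 for 1425840_a_at. For Nrp1 they ranged from -0.40 to 0.23 at 1448944_at, -0.0086 to 0.75 at 1448943_at, -0.64 to 0.42 at 1418084_at and -0.19 to 0.10 at 1457198_at. For Nrp2 they were -0.18 to 1.42 at 1456778_at and -0.17 to 0.28 at 1447343_at, for Plxna1 -0.24 to 0.40 at 1428623_at and -0.53 to 0.066 at 1421232_at, and for Plxnd1 -0.53 to 0.33. The brightest probe sets of the 6 semaphorins and of Nrp2 kept their sign under every alternative run, except that the filter on dim probe sets left Sema3d without a value. Their sizes did change. The mean over probe sets gave 0.62 for Sema3a, 1.01 for Sema3c, 0.66 for Sema3d, 0.50 for Sema3f and 0.58 for Nrp2. At the brightest probe sets these were 0.97, 2.05, 1.18, 0.98 and 0.89. For Sema3e the mean gave 0.41 beside 0.35, and Sema3g has only 1 probe set. The cause of these changes was not tested.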
